A study of Homo sapiens with 6 samples.

Results

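The genes described here are 56 genes of mitosis: the CDK1 kinase and its cyclins and regulators, the Polo and Aurora kinases, the spindle checkpoint, the kinetochore, the spindle motors, the anaphase machinery, the cytokinesis machinery and condensin. They were taken by symbol, and all 56 had a row among the 28395 gene IDs of the deposited count tables. The samples were 6 poly(A)-enriched RNA libraries of the cell line HCT116, which was established from a human colorectal carcinoma. In 3 libraries the cells had been given 50 nM TR-107, and in 3 they had been given the vehicle, 0.1% DMSO, each for 24 h. TR-107 activates ClpP, a protease of the mitochondrial matrix, and the comparison asks how mRNA levels in these cancer cells change under the compound. The submitters call the 3 libraries of a group biological replicates, but how far their cultures were handled apart is not stated, so the spread between these libraries is what p-values rest on and may be technical. The data hold a single cell line, dose and time.

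Mitosis is driven by CDK1 bound to cyclin B, which WEE1 holds back and the CDC25 phosphatases release. Chromosomes are compacted by condensin, attached to spindle microtubules through kinetochores, and held until the spindle checkpoint allows the anaphase-promoting complex (APC/C) to destroy cyclin B and securin. Most of these genes are transcribed in waves in G2 and M phase under the MuvB, MYBL2 and FOXM1 factors. In these bulk samples, fewer cells in G2 and M and less mRNA per such cell cannot be told apart.

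Fold changes are TR-107 over DMSO on the log2 scale, from edgeR's quasi-likelihood test across all genes with enough counts, with Benjamini-Hochberg adjustment over all of them and a threshold of 0.05. The test itself gives no standard error (SE). Each SE here is derived, as the absolute log2 fold change over the square root of the test's F statistic. CPM (counts per 1e6 counts) use TMM-scaled library sizes, and values are given for replicates 1, 2 and 3 in that order. Libraries held 17264039 to 22243758 counts with TR-107 and 18344471 to 23708135 with DMSO. Of 12 epithelial markers 9 had counts, among them EPCAM (396 CPM with TR-107 and 381 CPM with DMSO), and 7 had enough to test. The 12 summed to 5713 to 5848 CPM with TR-107 and 5198 to 5249 CPM with DMSO. VIL1 (at most 0.058 CPM with TR-107 and 0.041 CPM with DMSO) and LGALS4 (0 with TR-107 and at most 0.21 CPM with DMSO) were near 0. The colon markers CDX1, CEACAM5 and KRT20 were at 0. EPCAM was not called, CDH1 (0.79 on the log2 scale), ELF3 (0.48), KRT18 (0.27) and KRT19 (0.25) were called higher, and CDX2 (-0.46) was called lower. In no library was there a count for 4 of 10 fibroblast and endothelial markers (CDH5, COL3A1, DCN, LUM) or 4 of 8 leukocyte markers, PTPRC among them. The summed fibroblast and endothelial markers reached 16.7 to 19.3 CPM with TR-107 and 14.0 to 17.0 CPM with DMSO, and the leukocyte markers, mostly CD68, 10.4 to 15.0 CPM with TR-107 and 4.85 to 6.91 CPM with DMSO. Mitochondrially encoded genes took 4.62% to 4.99% of counts with TR-107 and 3.56% to 3.92% with DMSO, and leaving them out before scaling gave 50 mitosis genes called lower and 2 called higher, as with them.

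In every role, most of the tested mitosis genes fell after TR-107, and most by less than 2-fold. Of the 55 tested, 52 were called in either direction, against 57.8% of all 13767 genes tested. They split unevenly: 50 were called lower, against 28.6% of all genes, and 2 were called higher, against 29.2% of all genes. The 2 that rose were CKS1B and CDC25B, both of the CDK1 machinery. CDC25C, NDC80 and CENPE did not pass the threshold, and KIFC1 had too few counts to test. The median log2 fold change of the 55 was -0.57, which is 1.48-fold lower, beside 0.012 for all genes tested.

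The mitosis genes together held 0.606%, 0.607% and 0.595% of a library's counts with TR-107, against 0.900%, 0.885% and 0.917% with DMSO. Every TR-107 library was below every DMSO library, and the share with TR-107 was 0.669 of that with DMSO (p = 0.1 by an exact permutation test). Gene by gene, all 3 TR-107 libraries lay below all 3 DMSO libraries for 46 of the 55, where this held for 30.9% of all genes. They lay above for 2, where this held for 31.5% of all genes. Replicates agreed closely, with a median coefficient of variation of 4.37% with TR-107 and 4.23% with DMSO.

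The size of the fall was modest. At least 1.5-fold lower and called were 27 of the 55 (10.5% of all genes), and at least 2-fold lower were AURKA and BIRC5 alone among them (3.71% of all genes). KIF20A (log2 fold change -0.998), ANLN (-0.96) and CCNB1 (-0.95) lay just outside that limit. A test against 1.5-fold itself (edgeR's glmTreat) called 15 of the 55 lower, against 5.04% of all genes. These were AURKA, BIRC5, KIF20A, ANLN, CCNB1, CCNA2, ZWINT, PLK1, CKS2, BUB1B, MKI67, BUB1, DLGAP5, MAD2L1 and INCENP.

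**Figure D1:**
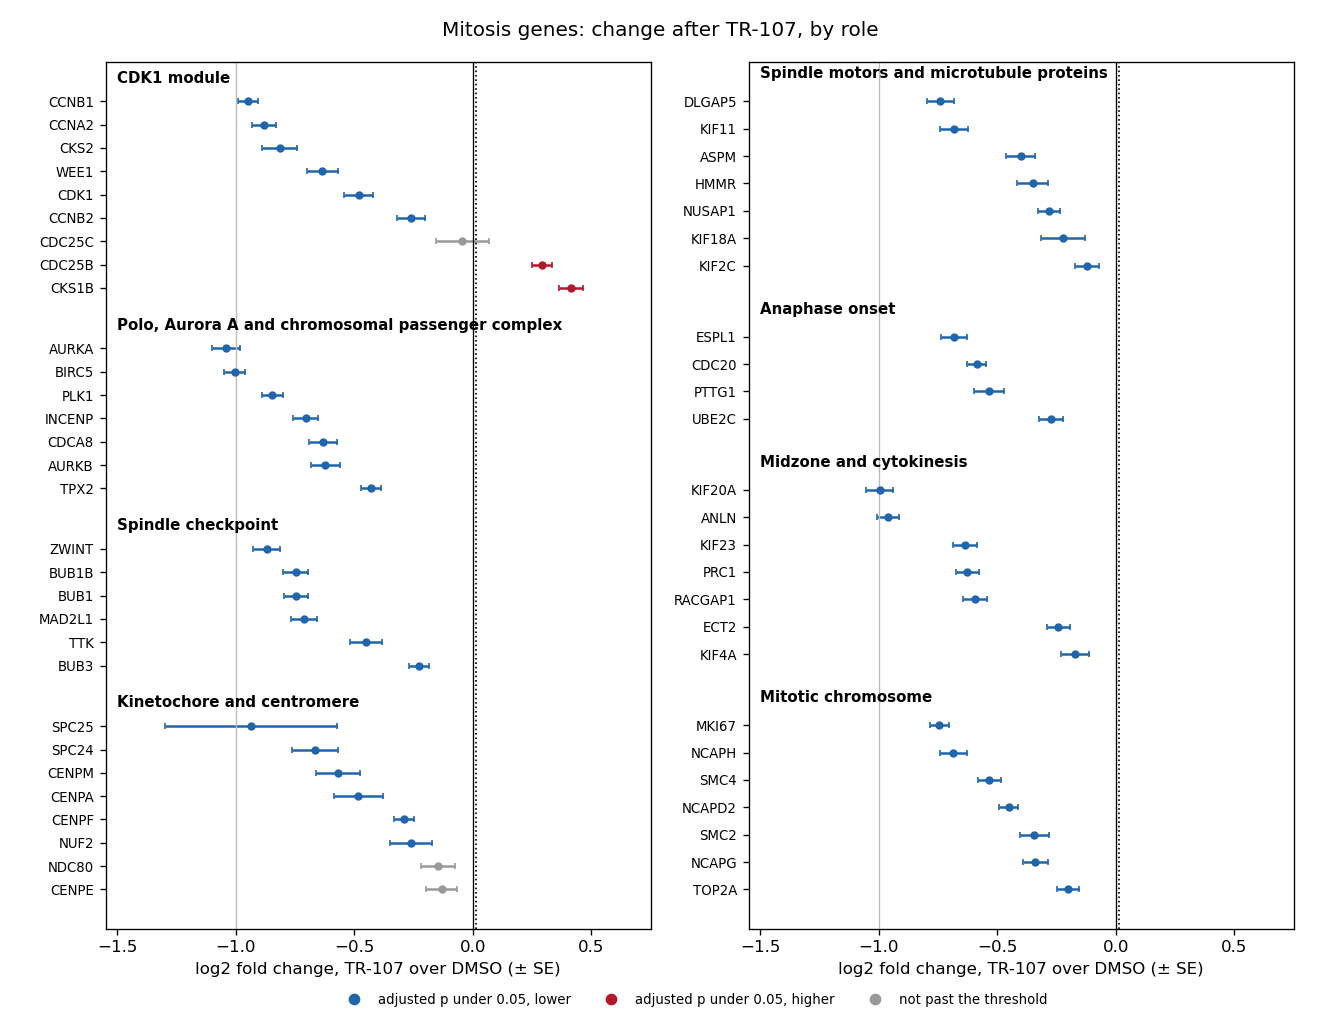
Log2 fold change of each tested mitosis gene, TR-107 over DMSO, with its standard error, grouped by role. The dotted line is the median of all genes tested (0.012) and the grey line marks -1. Points lie left of 0 in all roles except for CKS1B (0.41) and CDC25B (0.29).

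The promoters of these genes have a known signature that the selection did not use. The element TTTGAA, called the CHR, is where MuvB complexes bind the promoters of late cell cycle genes, and it usually stands a short way downstream of CCAAT boxes, which bind NF-Y. Of the 56 genes, 47 had a promoter in the RefSeq table of GRCh38.p14 (250 bases before to 50 after the start). TTTGAA, on either strand, was in 35 of these 47 (74.5%), in 9.41% of the 10794 promoters of genes tested here, and in 15.4% of the 27305 promoters in the table. CCAAT, on either strand, was in 36 (76.6%), in 36.6% of the promoters of genes tested and in 35.7% of all. Both stood in 28 (59.6%), in 3.93% of the promoters of genes tested and in 6.08% of all. These matches are letters in a window and do not show binding.

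The 150 bases before the start, 5′ to 3′ on the gene's strand, are shown for 5 genes that moved differently, with the letters of the TTTGAA motif and of the CCAAT motif, on either strand, in capitals. CKS1B and CKS2, close paralogs, were called in opposite directions, and both windows hold both motifs. PLK1 fell and holds both, KIF20A fell and holds CCAAT on the other strand only, and CDC25B rose and holds neither. The motifs are matched by exact letters, and whether they bear on the direction of change was not tested.
CKS1B: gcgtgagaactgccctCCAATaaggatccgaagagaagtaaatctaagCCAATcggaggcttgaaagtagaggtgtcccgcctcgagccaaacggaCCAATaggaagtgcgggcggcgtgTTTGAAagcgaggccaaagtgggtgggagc
CKS2: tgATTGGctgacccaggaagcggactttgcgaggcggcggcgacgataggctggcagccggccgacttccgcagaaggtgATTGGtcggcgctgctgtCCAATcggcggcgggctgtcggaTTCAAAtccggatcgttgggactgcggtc
PLK1: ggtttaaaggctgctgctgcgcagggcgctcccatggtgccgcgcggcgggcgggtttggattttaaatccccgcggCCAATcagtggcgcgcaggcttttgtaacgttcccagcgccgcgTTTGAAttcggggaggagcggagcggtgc
KIF20A: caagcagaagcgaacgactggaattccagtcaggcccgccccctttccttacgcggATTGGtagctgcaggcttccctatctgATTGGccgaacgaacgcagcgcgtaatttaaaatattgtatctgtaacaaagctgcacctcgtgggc
CDC25B: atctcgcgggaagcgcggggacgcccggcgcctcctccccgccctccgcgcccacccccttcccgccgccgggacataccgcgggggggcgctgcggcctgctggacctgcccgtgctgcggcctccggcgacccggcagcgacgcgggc
The windows lie, in GRCh38.p14 and all on the plus strand, at chr1:154974531-154974680 (CKS1B), chr9:89311045-89311194 (CKS2), chr16:23678739-23678888 (PLK1), chr5:138178962-138179111 (KIF20A) and chr20:3786801-3786950 (CDC25B). In PLK1 and CKS2 the CHR letters begin 29 bases before the start and in CKS1B 30 bases before it. As a description with no test, the median log2 fold change was -0.51 for the 34 tested genes with TTTGAA (-0.96 to 0.41) and -0.64 for the 12 without it (-0.998 to 0.29).

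Within the CDK1 machinery, 6 of 9 genes were called lower and 2 higher, against 28.6% and 29.2% of all genes. The same shares stand beside the counts of each role that follows, where genes counted as fallen are those called lower. CCNB1, cyclin B1, the main activator of CDK1 at mitotic entry (gene ID 891, GRCh38 chromosome 5, 69167150 to 69178245), had 153, 161 and 153 CPM with TR-107, against 300.4, 303 and 301 CPM with DMSO. The 2 groups were far apart beside a spread of a few CPM, and CCNB1 was 1.93-fold lower (log2 fold change -0.95 ± 0.043, SE, edgeR adjusted p = 1.89e-22). CCNB2, cyclin B2, had 71.5, 73.5 and 76.7 CPM with TR-107, against 89.2, 83.3 and 93.6 CPM with DMSO. It also fell without overlap, with a log2 fold change of -0.26 (edgeR adjusted p = 0.000214). The ratio of CCNB2 to CCNB1 counts was 0.474 ± 0.0244 with TR-107 and 0.295 ± 0.0182 with DMSO (SD, n = 3 each). A two-sided exact permutation test gave p = 0.1, which no arrangement of 3 against 3 libraries can go below, also after adjustment over the 7 shares and ratios computed, and the gene pairs were chosen after their values were seen. CCNA2, cyclin A2, which acts in S phase and G2, had 102, 109.8 and 115 CPM with TR-107, against 196, 196 and 210.1 CPM with DMSO, and was 1.84-fold lower (log2 fold change -0.88 ± 0.05, SE, edgeR adjusted p = 4.32e-19).

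CDK1, the mitotic kinase itself, had 106, 126 and 104 CPM with TR-107, against 159, 146 and 163 CPM with DMSO. The groups did not overlap, and CDK1 was 1.40-fold lower (log2 fold change -0.48 ± 0.06, SE, edgeR adjusted p = 6.90e-08). CKS1B and CKS2 encode the small subunits that dock CDK1 to phosphorylated substrates, and CKS1B also serves the SCF-SKP2 ubiquitin ligase that degrades p27. CKS2 had 44.2, 47.8 and 58.3 CPM with TR-107, against 86.8, 88.8 and 89.9 CPM with DMSO. All TR-107 values were lower, and CKS2 was 1.76-fold lower (log2 fold change -0.82 ± 0.072, SE, edgeR adjusted p = 4.03e-12). CKS1B (gene ID 1163, GRCh38 chromosome 1, 154974681 to 154979251) had 119.7, 122 and 119 CPM with TR-107, against 89.1, 93.1 and 89.0 CPM with DMSO. It was higher in 3 of 3 TR-107 libraries, by 0.41 ± 0.052 on the log2 scale (SE, edgeR adjusted p = 4.96e-09).

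Raw counts of the paralogs were apart in the TR-107 libraries and level in the DMSO libraries, in a ratio that does not depend on the scaling. Their annotated exons, merged over all transcripts of a gene, differ in length, at 2338 bases for CKS1B and 613 for CKS2. Level counts therefore need not be level expression. A merged length can exceed that of the mRNA present, so values per kb do not settle which paralog is more expressed. Per kb of exon, CKS1B had 51.5 CPM with TR-107 and 38.7 with DMSO, and CKS2 had 81.8 with TR-107 and 144 with DMSO. CKS1B had 2.71, 2.56 and 2.05 counts per CKS2 count with TR-107, against 1.03, 1.05 and 0.990 with DMSO (exact permutation p = 0.1). How reads from the near-identical copies of such small genes were counted is not given in the sources used here, so both values carry that uncertainty.

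Among the enzymes that act on CDK1, WEE1 mRNA fell, CDC25B mRNA rose and CDC25C was not called. WEE1, the kinase that restrains CDK1, had 63.0, 54.3 and 55.4 CPM with TR-107, against 86.6, 85.4 and 95.8 CPM with DMSO, and was 1.55-fold lower (log2 fold change -0.64 ± 0.065, SE, edgeR adjusted p = 3.00e-11). CDC25B, a phosphatase that starts CDK1 activation, had 282, 284 and 276 CPM with TR-107, against 225, 233 and 229.7 CPM with DMSO. It was higher in 3 of 3 TR-107 libraries, by 0.29 ± 0.041 on the log2 scale (SE, edgeR adjusted p = 7.35e-08). CDC25C, its relative that amplifies the activation, had 17.2, 17.1 and 18.7 CPM with TR-107, against 17.98, 17.7 and 19.1 CPM with DMSO. These groups overlapped, and the log2 fold change was -0.045 ± 0.11 (SE, edgeR adjusted p = 0.757). The ratio of CDC25B to WEE1 counts was 4.90 ± 0.383 with TR-107 and 2.58 ± 0.165 with DMSO (SD, n = 3 each, exact permutation p = 0.1).

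**Figure D2:**
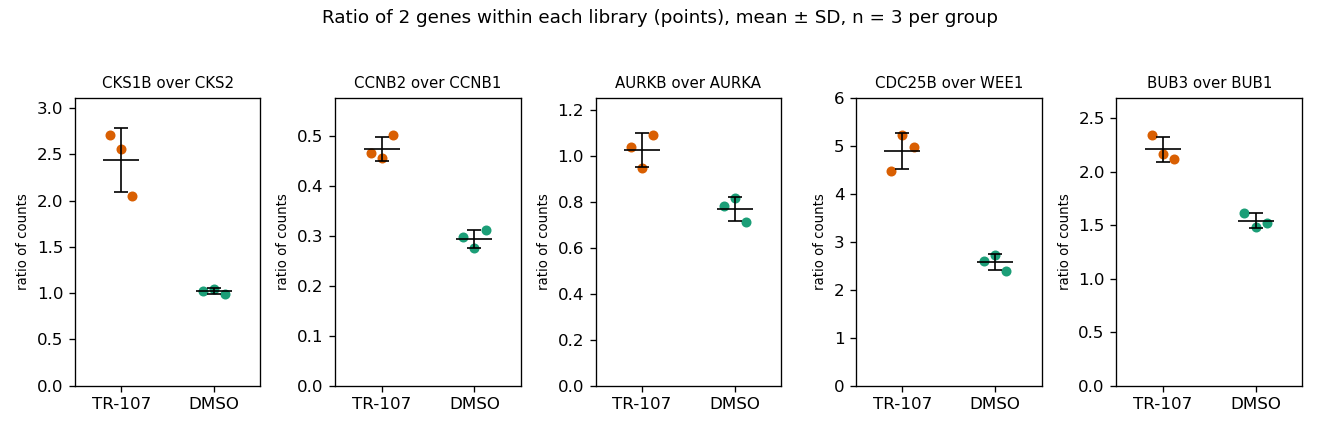
Ratio of the counts of 2 related genes within each library, with mean ± SD of 3 libraries per group. In each of the 5 panels the TR-107 libraries lie above the DMSO libraries, and the ratio of the group means is highest for CKS1B over CKS2 (2.44 with TR-107 and 1.02 with DMSO). The pairs were chosen after their values were seen, each with the gene of higher log2 fold change on top. Their shared direction follows from that choice.

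All 7 genes of the Polo and Aurora kinases and the chromosomal passenger complex fell, with log2 fold changes from -1.04 to -0.43 and a median of -0.71. AURKA, the kinase of centrosome maturation and spindle assembly (gene ID 6790, GRCh38 chromosome 20, 56369390 to 56392215), had 55.03, 59.0 and 56.1 CPM with TR-107, against 117, 109 and 124 CPM with DMSO. It had the lowest fold change of the 55, -1.04 ± 0.06 (SE, edgeR adjusted p = 5.45e-19). TPX2, which activates AURKA on the spindle, was 1.35-fold lower. PLK1, the kinase of mitotic entry, centrosomes and cytokinesis, had 145, 143 and 148 CPM with TR-107, against 258, 258 and 269 CPM with DMSO, and was 1.80-fold lower (log2 fold change -0.85 ± 0.044, SE, edgeR adjusted p = 2.19e-20).

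The chromosomal passenger complex corrects faulty attachments and is made of AURKB, INCENP, BIRC5 (survivin) and CDCA8 (borealin). BIRC5 had 126, 127 and 138 CPM with TR-107, against 260.1, 265 and 260.5 CPM with DMSO, and was 2.01-fold lower (log2 fold change -1.01 ± 0.046, SE, edgeR adjusted p = 2.13e-22). AURKB, its kinase, had 57.2, 55.8 and 61.2 CPM with TR-107, against 91.4, 89.1 and 87.9 CPM with DMSO, and was 1.54-fold lower (log2 fold change -0.62 ± 0.061, SE, edgeR adjusted p = 8.15e-12). INCENP and CDCA8 were 1.63-fold and 1.55-fold lower. All 4 subunits were called, with BIRC5 lower than the other 3 by fold change. AURKB kept more of its level than AURKA: the ratio of AURKB to AURKA counts was 1.03 ± 0.0732 with TR-107 and 0.769 ± 0.0535 with DMSO (SD, n = 3 each, exact permutation p = 0.1).

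All 6 genes of the spindle checkpoint fell, and their median fold change was -0.73 on the log2 scale. BUB1, a kinase that recruits the checkpoint to kinetochores, had 106, 119.8 and 115 CPM with TR-107, against 182, 194 and 195 CPM with DMSO, and was 1.68-fold lower (log2 fold change -0.75 ± 0.05, SE, edgeR adjusted p = 9.80e-17). BUB1B, which encodes BUBR1 of the mitotic checkpoint complex, had 91.6, 99.996 and 90.3 CPM with TR-107, against 161, 147 and 165 CPM with DMSO, and was 1.68-fold lower (log2 fold change -0.75 ± 0.053, SE, edgeR adjusted p = 7.34e-16). MAD2L1, which encodes MAD2 of the same complex, ZWINT, which links the checkpoint to the kinetochore, and TTK, the kinase MPS1 at the head of the pathway, had log2 fold changes of -0.71, -0.87 and -0.45. BUB3, the adaptor that both BUB1 and BUBR1 bind, moved least. It had 248, 259 and 244 CPM with TR-107, against 294, 287 and 297 CPM with DMSO, and was 1.17-fold lower (log2 fold change -0.23 ± 0.041, SE, edgeR adjusted p = 9.71e-06). The ratio of BUB3 to BUB1 counts was 2.21 ± 0.116 with TR-107 and 1.54 ± 0.0698 with DMSO (SD, n = 3 each, exact permutation p = 0.1).

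Kinetochore and centromere genes changed less uniformly than the checkpoint genes: 6 of 8 were called lower, against 28.6% of all genes. In 5 of 8 every TR-107 library lay below every DMSO library, against 30.9% of all genes. NDC80, the microtubule-binding subunit that gives its complex its name, had 50.6, 47.5 and 45.4 CPM with TR-107, against 52.3, 50.0 and 56.1 CPM with DMSO. These overlapped, and the log2 fold change was -0.15 ± 0.072 (SE, edgeR adjusted p = 0.0827). The test passed without TR-107 replicate 1 (0.0485) or DMSO replicate 2 (0.0410) and with library size alone (0.0129). Of its partners, SPC24 (-0.67) and NUF2 (-0.26) were called lower, and the NUF2 call was lost without TR-107 replicate 3 (edgeR adjusted p = 0.0749) or DMSO replicate 3 (0.102). SPC25, the fourth subunit, had 1.87, 2.25 and 2.52 CPM with TR-107, against 2.30, 2.71 and 7.65 CPM with DMSO. It was called at -0.94 ± 0.36 (SE, edgeR adjusted p = 0.0309), but a single library, DMSO replicate 3, set that value. Without it, the log2 fold change of SPC25 was -0.19 (edgeR adjusted p = 0.706), and the call was also lost without any 1 of the TR-107 libraries (0.104 to 0.153).

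CENPE, the kinesin that brings chromosomes to the spindle equator, had 60.2, 62.7 and 64.9 CPM with TR-107, against 66.2, 66.1 and 73.4 CPM with DMSO. The TR-107 libraries were all lower, by a small margin, and the test did not pass (log2 fold change -0.13 ± 0.065, SE, edgeR adjusted p = 0.078). Without DMSO replicate 2 (0.0445) or with library size alone (0.00763) it did. CENPF, a large protein of the outer kinetochore, had 239, 233 and 232 CPM with TR-107, against 297, 276 and 290.1 CPM with DMSO, and was 1.22-fold lower (log2 fold change -0.29 ± 0.042, SE, edgeR adjusted p = 9.58e-08). CENPA, the histone variant that marks centromeres, and CENPM, a subunit of the inner kinetochore, had log2 fold changes of -0.48 and -0.57, at 17.3 to 25.5 CPM with TR-107 and 27.3 to 35.7 CPM with DMSO.

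All 7 tested genes of spindle motors and microtubule proteins fell, with a median of -0.35 on the log2 scale. KIF11, the kinesin Eg5 that pushes spindle poles apart, had 69.7, 72.1 and 66.0 CPM with TR-107, against 108, 105 and 121 CPM with DMSO, and was 1.61-fold lower (log2 fold change -0.68 ± 0.06, SE, edgeR adjusted p = 3.29e-13). DLGAP5, which stabilises kinetochore fibres, had the lowest log2 fold change of the role (-0.74), ahead of KIF11, and ASPM, of the spindle poles (-0.40), HMMR (-0.35) and NUSAP1 (-0.28) followed KIF11. KIF2C, the microtubule depolymerase MCAK, had 134, 128 and 131 CPM with TR-107, against 153, 134 and 141 CPM with DMSO. Its groups overlapped and its call (log2 fold change -0.12 ± 0.05, SE, edgeR adjusted p = 0.0384) was lost without TR-107 replicate 2 (0.131) or 3 (0.0735) or DMSO replicate 1 (0.247). KIF18A, which dampens chromosome movement, was called lower, at -0.22 on the log2 scale (edgeR adjusted p = 0.0409). Its fold change was -0.099 without TR-107 replicate 1 (edgeR adjusted p = 0.309), and the call was also lost without TR-107 replicate 2 or DMSO replicate 1 or 3 (0.0773 to 0.108).

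KIFC1, a motor that clusters centrosomes, was near 0, with 6, 7 and 5 counts with TR-107 and 7, 13 and 7 with DMSO, and was not tested. It lies on GRCh38 chromosome 6, 33391461 to 33409896. The beta tubulin gene TUBB, on the same arm (30720352 to 30725422), held 1 to 5 counts with TR-107 and 6 to 20 with DMSO. Between 29 and 34 Mb of this chromosome, 15 of 167 protein-coding genes (8.98%) had enough counts to test, against 527 of 827 (63.7%) on the rest of it. The region was chosen after these values were seen. Counts there are not read as levels of expression, and whether the alignment or the counting lost reads in it was not tested.

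All 4 genes of anaphase onset fell. CDC20, which activates the APC/C once the checkpoint is satisfied, had 274, 275 and 288 CPM with TR-107, against 403, 438 and 417 CPM with DMSO, and was 1.503-fold lower (log2 fold change -0.59 ± 0.041, SE, edgeR adjusted p = 3.83e-16). UBE2C, the E2 enzyme that serves the APC/C, was 1.21-fold lower. PTTG1, which encodes securin, and ESPL1, the separase that securin holds back, had log2 fold changes of -0.54 and -0.68, without overlap between the groups.

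All 7 genes of the spindle midzone and cytokinesis fell, with log2 fold changes of -0.998 to -0.17. KIF20A, the kinesin that carries the passenger complex to the midzone (gene ID 10112, GRCh38 chromosome 5, 138179112 to 138187723, overlapping CDC23), had 57.2, 63.7 and 61.6 CPM with TR-107, against 127, 118 and 119.5 CPM with DMSO. Its log2 fold change was -0.998 ± 0.058 (SE, edgeR adjusted p = 8.93e-19). ANLN, anillin, a scaffold of the contractile ring, had 138, 139 and 139 CPM with TR-107, against 281, 255 and 277 CPM with DMSO, and was 1.95-fold lower (log2 fold change -0.96 ± 0.046, SE, edgeR adjusted p = 8.37e-22). PRC1, which bundles antiparallel microtubules, had 119, 118 and 128 CPM with TR-107, against 183, 187 and 195 CPM with DMSO, and was 1.54-fold lower (log2 fold change -0.63 ± 0.048, SE, edgeR adjusted p = 6.54e-15).

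KIF23 and RACGAP1, which form the centralspindlin complex, both fell (log2 fold changes -0.64 ± 0.05 and -0.59 ± 0.051, SE). ECT2, the RhoA activator that centralspindlin recruits, was 1.18-fold lower. KIF4A, which sets midzone length with PRC1, was at -0.17 on the log2 scale (edgeR adjusted p = 0.0126), overlapped between groups, and lost its call without TR-107 replicate 2 or 3 or DMSO replicate 3 (0.0527 to 0.0772).

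All 7 genes of the mitotic chromosome fell. MKI67, the proliferation marker that coats mitotic chromosomes, had 446, 431 and 407 CPM with TR-107, against 746, 724 and 682 CPM with DMSO. It was the most counted of the 56, and was 1.68-fold lower (log2 fold change -0.75 ± 0.041, SE, edgeR adjusted p = 9.86e-20). TOP2A, the topoisomerase that untangles sister chromatids, is often read beside MKI67 as a proliferation marker. It had 206, 224 and 211 CPM with TR-107, against 249.5, 230.4 and 256 CPM with DMSO, and was 1.149-fold lower (log2 fold change -0.20 ± 0.046, SE, edgeR adjusted p = 0.000221). The groups did not overlap for either gene.

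Condensin I consists of SMC2, SMC4, NCAPD2, NCAPG and NCAPH. SMC4, an ATPase core subunit, had 178, 184 and 177 CPM with TR-107, against 246, 249.1 and 285 CPM with DMSO, and was 1.45-fold lower (log2 fold change -0.53 ± 0.048, SE, edgeR adjusted p = 1.86e-12). NCAPH, the kleisin that closes the ring, had 66.3, 72.3 and 69.99 CPM with TR-107, against 108, 113 and 114 CPM with DMSO, and was 1.61-fold lower (log2 fold change -0.69 ± 0.056, SE, edgeR adjusted p = 5.62e-14). SMC2 (-0.34), NCAPG (-0.34) and NCAPD2 (-0.45) fell less. The span of SMC4 overlaps MIR15B, MIR16-2 and TRIM59-IFT80.

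**Figure D3:**
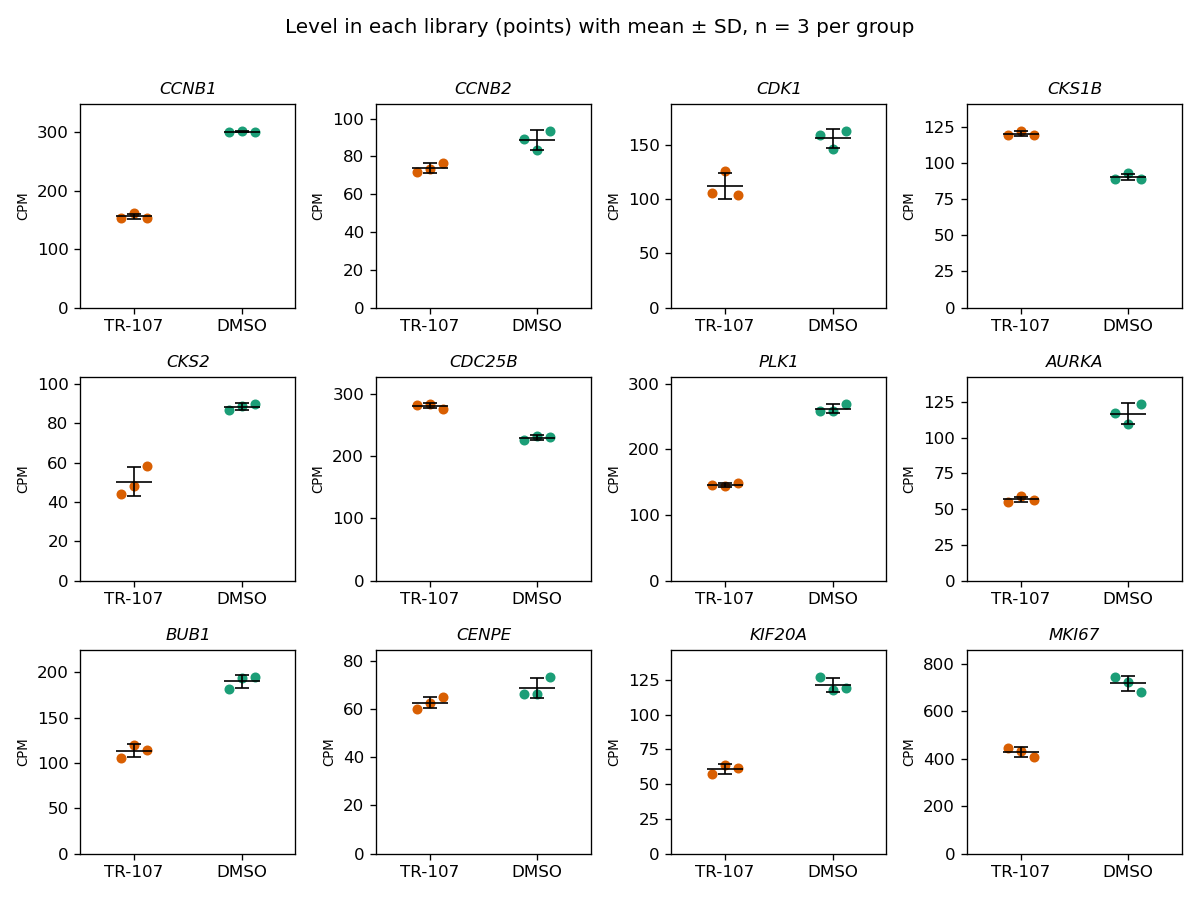
CPM of 12 mitosis genes in each library, with mean ± SD of 3 libraries per group and axes from 0. CKS1B and CDC25B are higher in the TR-107 libraries, CENPE is lower by a small margin, and the other 9 are lower without overlap.

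**Figure D4:**
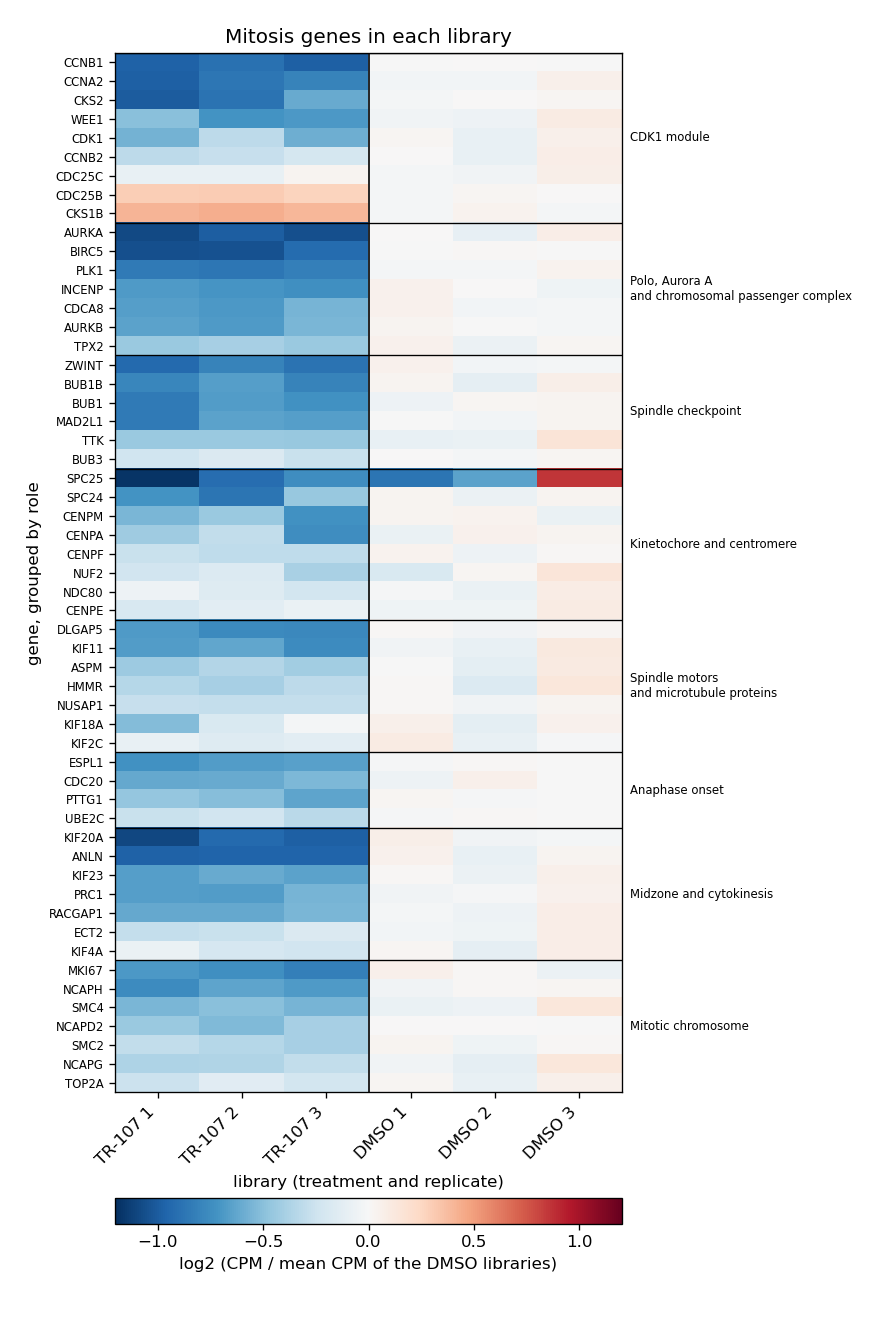
Log2 of the CPM in each library over the mean CPM of the DMSO libraries, for the 55 tested mitosis genes in their roles. The 3 TR-107 columns are mostly blue in all roles, CKS1B and CDC25B are the red rows, and DMSO replicate 3 stands apart for SPC25 (7.65 CPM, beside 2.30 and 2.71 in the other DMSO libraries).

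Set per length of annotated exon, levels among the 55 ran from 1.201 CPM per kb with TR-107 and 2.29 with DMSO for SPC25 to 137 CPM per kb with TR-107 and 206 with DMSO for CDC20. CKS2 (81.8 CPM per kb with TR-107 and 144 with DMSO) and CCNB1 (60.9 with TR-107 and 118 with DMSO) stood next to CDC20 at the upper end in DMSO. CDC25C (5.30 with TR-107 and 5.47 with DMSO) and CENPE (6.63 with TR-107 and 7.26 with DMSO) stood near the lower end. The lengths merge the exons of all transcripts of a gene, so this order is approximate. Across the 55 genes, the log2 fold change had little relation to the mean CPM in DMSO (Pearson's r of -0.096 and Spearman's rho of -0.21, as a description of genes that share their libraries).

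Beyond these 56, other genes of the division machinery were read from lists chosen with earlier results of these data known. Of 121 tested genes in 8 such lists, 72 fell and 12 rose, with a median log2 fold change of -0.30. Counts in these lists stand beside the 28.6% of all genes called lower, the 29.2% called higher and the median of 0.012, and values beside gene names are log2 fold changes. The tubulins, the building blocks of the spindle and of the interphase cytoskeleton, were lower in 8 of 8 tested genes (median -0.81). TUBA4A (-1.44) and TUBB4B (-1.11) were the lowest, and TUBA1C (-0.61) and TUBA1A (-0.50) the highest. TUBA1B had 1164 ± 23.5 CPM with TR-107 and 2123 ± 57.4 CPM with DMSO (SD, n = 3 each). Further spindle and centrosome genes fell in 23 of 36 and rose in 2. FAM83D, which brings a motor to the spindle (-1.09), and HAUS7, an augmin subunit (-1.005), had the lowest values, and NUMA1 (0.45) and CDK5RAP2 (0.38) were those that rose. Further kinetochore genes fell in 17 of 29 and rose in 2, with CENPX at -1.35, CENPI at -0.998, CENPH at 0.38 and CENPK at 0.25.

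APC/C subunits and cohesin genes were called in both directions, as all genes were (28.6% lower and 29.2% higher). Of 14 APC/C subunits, 5 fell and 3 rose, with a median of -0.026. ANAPC2 (-0.51) and CDC23 (-0.40) were the lowest, and ANAPC16 (0.71) and CDC16 (0.42) the highest. Of 13 cohesin genes, 6 fell and 4 rose, with a median of 0.0085. Among them SGO2, a protector of centromeric cohesion (-0.68), and CDCA5, sororin (-0.64), fell, while STAG2 (0.40), a core subunit, and MAU2 (0.48), of the cohesin loader, rose. All 3 subunits particular to condensin II fell (NCAPD3 -0.56, NCAPG2 -0.32, NCAPH2 -0.23). Of 6 regulators of the APC/C or the checkpoint, 3 fell: TRIP13, which takes apart the MAD2 complex (-0.82), FBXO5, the APC/C inhibitor EMI1 (-0.58), and UBE2S (-0.33). Of 12 genes of mitotic exit, 7 fell and 1, ENSA (0.31), rose. PPP1CC (-0.63) and MASTL, the Greatwall kinase (-0.46), were the lowest, and PPP1CA (-0.17) was the highest of the 7.

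Among 13 factors that time this transcription, 8 fell and 3 rose, where 28.6% of all genes were called lower and 29.2% higher. MYBL2, which activates late cell cycle promoters with MuvB, had 128 ± 0.955 CPM with TR-107 and 215 ± 8.91 CPM with DMSO (SD, n = 3 each; log2 fold change -0.75). FOXM1, which follows it there and whose gene overlaps RHNO1 and ITFG2, had 102 ± 5.31 CPM with TR-107 and 160.3 ± 4.79 CPM with DMSO (SD, n = 3 each; -0.65). TFDP1 (-0.70), the partner of E2F factors, also fell. Members of the repressive DREAM complex and its relatives went both ways: RBBP4 (-0.39), LIN52 (-0.33), E2F4 (-0.28), RBL1 (-0.23) and LIN54 (-0.19) fell, while LIN37 (0.57, with overlapping groups), TFDP2 (0.52) and RBL2, the p130 protein (0.24), rose. DNA replication genes, of the phase before, fell in 42 of 44, against 28.6% of all genes. Their median was -0.64, beside a median of -0.57 for the 55 mitosis genes. They ran from -1.29 for MCM4 and -1.29 for FEN1 to -0.036 for RPA3, and the highest of those called were RRM1 (-0.28) and POLE (-0.20). RPA3 and PRIM1 did not pass the threshold. Called and at least 2-fold lower were 7 of those 44, and 2 of the 55, against 3.71% of all genes.

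**Figure D5:**
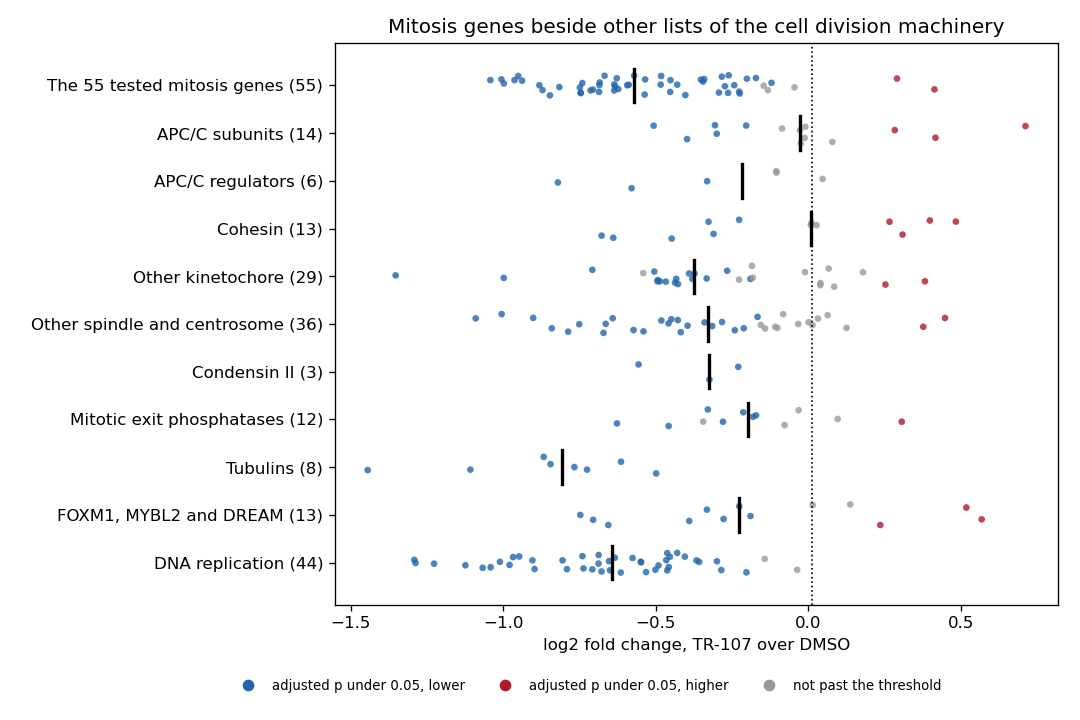
Log2 fold change of each tested gene of the mitosis set and of 10 further lists, with the median of each as a black bar and the number of tested genes in brackets. The dotted line is the median of all genes tested (0.012). Tubulins and DNA replication genes lie left of it, while APC/C subunits and cohesin scatter around it.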

How the data were processed

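Poly(A)-enriched RNA of HCT116 cells was sequenced in 3 TR-107 and 3 DMSO libraries. The deposited files held raw counts of reads in genes, used as the authors left them. Per the submitters' processing notes, the tools were FastQC, Trimmomatic, HISAT2 and featureCounts and the build was hg38. Not given in the sources used here were versions, annotation, strand and multi-mapping settings. Reads of the 29 of 56 mitosis genes that overlap another annotated gene, and of near-identical copies, may therefore be misassigned.

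Of 28395 gene IDs, 27745 matched a symbol in the RefSeq table of GRCh38.p14 and 650 did not. Titles and treatment labels gave the groups. Counts were tested with edgeR 4.0.16 in R 4.3.3 (TMM, filterByExpr, robust quasi-likelihood fit, group alone), with Benjamini-Hochberg adjustment at 0.05 over 13767 genes. The steps were tested on simulated data. No replicate pair lay within sampling noise (chi-square per degree of freedom of 4 to 6.21). Intervals were not computed for single libraries, whose 17264039 to 23708135 counts limit low genes such as SPC25. Exon lengths for CPM per kb came from GENCODE 29, with the exons of all transcripts of a gene merged.

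Alternatives were RLE and upper-quartile factors, library size alone, leaving out mitochondrially encoded genes, no filter, 1 CPM in 3 libraries, a replicate block, DESeq2 1.42.0, limma-voom (limma 3.58.1), glmTreat against 1.5-fold, and 6 fits without 1 library each. The mitosis genes and the further lists were chosen with earlier results of these data known. Values per library are given for 27 mitosis genes fixed by name, for those called higher, not called or not tested, and for the 5 lowest and 5 highest fold changes. Values of SPC25, TUBA1B, TUBB, FOXM1, RBBP4, LIN52, LIN54, E2F4, RBL1, RBL2, RPA3, PRIM1, EPCAM, KRT18, VIL1, LGALS4 and COL1A1 were added after their values were seen. Of each further list, the 2 lowest and 2 highest called genes are named. Motifs were searched on both strands of RefSeq promoters.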

Additional observations from a re-analysis of the deposited data

How the results depend on the processing

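The number of mitosis genes called lower was 46 to 52 in 15 of 16 alternatives, including 46 to 52 when a library was left out, 50 with DESeq2 and 48 with limma-voom, and 2 were called higher in each of these. The test against 1.5-fold called 15 lower and 0 higher (18 and 0 at unadjusted p under 0.05), and 1723 of all genes, since it asks for a larger change. The number of all genes called was otherwise 7323 to 8021. Called lower were 3941 of all 13767 genes (28.6%) in the main fit, and 694 (5.04%) with the test against 1.5-fold. Fewer than 3941 genes were called lower in each fit without a library. The most were called lower with library size alone, a setting with 52 mitosis genes called lower. Without DMSO replicate 2, 52 mitosis genes were also called lower, while fewer of all genes were than in the main fit. The median log2 fold change of the 55 genes was -0.63 with library size alone, and -0.58 to -0.52 when a library was left out, with -0.52 without TR-107 replicate 3. No mitosis gene changed direction. In 48 of 55, the call was the same in every alternative except the test against 1.5-fold, and in 16 it was the same in all 16. The exceptions to the first count were NDC80, CENPE, NUF2, SPC25, KIF18A, KIF2C and KIF4A, and the cause was not tested. SPC25 and KIF2C also missed the threshold with limma-voom (adjusted p of 0.0975 and 0.0567). Counting TTCGAA together with TTTGAA as the promoter motif gave 36 promoters of 47, in place of 35.

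With the replicate number as a block, 50 mitosis genes were called lower and 2 higher, with a median of -0.57, and 7918 of all genes were called. Deviations from the group means of libraries with the same number correlated at -0.0311, -0.0185 and 0.0486 over genes, so the numbers are not taken as pairs. SPC25 had few counts, at 1.87 to 2.52 CPM with TR-107 and 2.30 to 7.65 CPM with DMSO, and its call also rested on DMSO replicate 3. KIFC1 had few counts too, but in the chromosome 6 region where counts are not read as levels of expression. A single line, dose and time, with 3 libraries a group, set the scope of every value.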
